A study of Mus musculus with 6 samples.

Results

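The genes described here were grouped as marking the stage between the oligodendrocyte progenitor cell (OPC) and the myelinating oligodendrocyte: Bcas1, Enpp6, Itpr2, Fyn, Bmp4, Neu4, Smoc1, Dusp15, Rras2 and Tmem163. They were taken by symbol from the table of transcript abundance, where all 10 are present among 55492 genes. The table holds 6 libraries of poly(A) RNA from mouse brain, 3 from wild-type (WT) mice and 3 from Npc1-/- mice, which lack the transporter that carries cholesterol out of the lysosome. All mice were untreated and 16 days old, each library came from the whole brain of a separate mouse, and cells were pulled out with magnetic beads against O4, a lipid antigen of late progenitors and young oligodendrocytes. The mutant allele is Npc1 nih, carried in every cell of the body, and the Npc1-/- mice are F1 hybrids of the BALB/cJ and C57BL6/J backgrounds, compared with littermates. Levels are given as scaled TPM, the TPM deposited by the authors (transcript abundance per length, with the same total in every library) divided by a size factor for each library.

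An OPC that commits to differentiate stops dividing, loses the PDGF receptor and passes through a short premyelinating stage before it wraps axons. Genes of this stage are switched on by the transcription factors OLIG2, SOX10, TCF7L2 and MYRF and are in part switched off again as the myelin genes rise. Enpp6 and Bcas1 are used to find newly forming oligodendrocytes in tissue, and Fyn is the kinase that links contact with an axon to the growth of processes and the local translation of Mbp. BMP4 acts in the opposite direction, as a secreted signal that holds progenitors back.

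Npc1 itself stood at 53.3, 50.4 and 45.5 TPM in WT replicates 1, 2 and 3 and at 4.10, 4.42 and 3.16 in Npc1-/- replicates 1, 2 and 3. The depth read from the spacing of low values was between 40500000 and 50250000 fragments a library, which puts an estimated 365 to 587 fragments behind Smoc1 in a library and at least 3037 behind each of the other 9 genes. The 17 markers of myelinating oligodendrocytes summed to between 177140 and 439140 scaled TPM, most of it Mbp (145090 to 359520), and the 12 OPC markers to between 327 and 540.3. Olig1, Olig2 and Sox10, which are expressed throughout the lineage, differed by at most 0.06 (log2) between genotypes. Markers of other cells differed with genotype on this scale: endothelial markers (6 genes) summed to 543 to 728 scaled TPM in WT and 341 to 414 in Npc1-/-, mural cell markers (5 genes) to 528 to 743 and 282 to 404, and microglia markers (8 genes) to 215 to 333 and 102 to 190.4. Neuron markers (10 genes) summed to 109.5 to 149.8 in WT, against 173 to 213 in Npc1-/-. The rise was uneven, and only Nefl and Nefm were higher in every Npc1-/- library than in any WT library. The log2 fold change was 0.30 to 0.53 for Snap25, Rbfox3, Tubb3 and Stmn2. It was 0.06 for Syt1, 0.04 for Slc17a7, 0.07 for Gad1 and −0.00229 for Gad2. The sum of the astrocyte markers (8 genes) overlapped, at 1345 to 1751 and 1416 to 3144. S100b made up much of that sum (621 to 1049 in WT, against 966 to 2282 in Npc1-/-). Gfap was higher without overlap, at 81.1 to 100.2 in WT and 111.6 to 271.5 in Npc1-/- (log2 fold change 1.01, adjusted p = 0.108 by limma). In contrast, 5 of the 8, Aqp4, Gja1, Aldh1l1, Slc1a3 and Slc1a2, were lower in every Npc1-/- library than in any WT library. Of all genes tested, 14.2% were lower and 13.3% higher in this way. The median log2 fold change of the astrocyte list was −0.33. Of these markers, Tmem119 (microglia, log2 fold change −1.44) was called lower and Nefl (1.22) and Nefm (1.11, both neuron) higher by limma. These calls were kept in 12, 13 and 13 of 21 alternative settings, and of the settings that leave out a single library only in that without Npc1-/- replicate 3. No marker of these lists was at 0 in all libraries, and the part of these cells in the results below was not tested. Npc1-/- replicate 3 alone held Xist (15.6 TPM), with the Y-linked Ddx3y at 0.

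Starts of 7 of the 10 genes were found in the RefSeq table of promoters for GRCm38.p6 (250 bases before to 50 after each start). Motif positions are relative to these RefSeq starts, which for Tmem163, Fyn and Neu4 differ from the GENCODE gene limits given further below. For Tmem163 and Fyn the GENCODE start lies outside the window. The windows of Tmem163, Rras2 and Itpr2 are shown because these genes had the lowest levels in Npc1-/- relative to WT, and those of Enpp6 and Fyn because they hold the other motif matches. Capitals mark exact matches, on either strand, to ACAAAG or ACAATG (SOX type), CAGCTG or CATATG (E-boxes bound by bHLH factors) or ATCAAAG (TCF/LEF type). ACAAAG and ATCAAAG end in the same letters but neither contains the other, and no 2 matches overlap in these windows.
Tmem163, chr1:127677972-127678271, minus strand: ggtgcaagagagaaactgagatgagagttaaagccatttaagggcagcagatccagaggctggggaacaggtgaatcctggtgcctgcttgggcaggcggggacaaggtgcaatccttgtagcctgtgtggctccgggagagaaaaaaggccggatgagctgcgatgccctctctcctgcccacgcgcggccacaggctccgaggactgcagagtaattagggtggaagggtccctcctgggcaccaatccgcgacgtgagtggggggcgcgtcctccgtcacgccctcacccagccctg
Rras2, chr7:114117732-114118031, minus strand: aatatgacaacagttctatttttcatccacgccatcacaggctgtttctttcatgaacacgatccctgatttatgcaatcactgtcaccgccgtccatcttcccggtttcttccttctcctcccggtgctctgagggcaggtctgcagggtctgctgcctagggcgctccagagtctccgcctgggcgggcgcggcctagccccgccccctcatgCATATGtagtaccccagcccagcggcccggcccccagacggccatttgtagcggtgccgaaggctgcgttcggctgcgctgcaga
Itpr2, chr6:146502174-146502473, minus strand: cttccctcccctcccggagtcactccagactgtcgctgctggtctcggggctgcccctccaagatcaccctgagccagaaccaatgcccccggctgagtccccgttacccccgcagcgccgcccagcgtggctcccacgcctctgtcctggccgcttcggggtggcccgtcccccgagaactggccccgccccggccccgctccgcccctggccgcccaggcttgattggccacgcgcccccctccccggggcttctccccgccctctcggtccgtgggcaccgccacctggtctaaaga
Enpp6, chr8:46986637-46986936, plus strand: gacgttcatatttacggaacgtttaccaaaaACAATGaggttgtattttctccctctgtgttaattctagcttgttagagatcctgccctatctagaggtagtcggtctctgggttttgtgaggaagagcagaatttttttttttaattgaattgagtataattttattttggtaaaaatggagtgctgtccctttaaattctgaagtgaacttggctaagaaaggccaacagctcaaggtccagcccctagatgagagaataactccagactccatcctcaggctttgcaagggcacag
Fyn, chr10:39369549-39369848, plus strand: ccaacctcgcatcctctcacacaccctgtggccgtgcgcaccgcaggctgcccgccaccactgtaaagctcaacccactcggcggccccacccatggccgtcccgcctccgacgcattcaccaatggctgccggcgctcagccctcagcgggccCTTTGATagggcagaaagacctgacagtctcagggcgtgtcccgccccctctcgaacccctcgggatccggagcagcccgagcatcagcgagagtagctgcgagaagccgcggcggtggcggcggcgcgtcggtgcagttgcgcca

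A match was found in 3 of the 7 windows: CATATG in Rras2, with its first base at −35 relative to the start, ACAATG in Enpp6 at −219, and ATCAAAG on the opposite strand of Fyn at −96. Over all 32851 windows in the table, 44.7% held at least 1 of the 5 motifs, 3.91% held CATATG, 12.6% ACAATG and 3.73% ATCAAAG. None of the 7 held ACAAAG (18.7% of all windows) or CAGCTG (16.3%). Base composition varied among the windows: the GC share was 73.3% in Itpr2, 69% in Fyn, 64% in Bmp4, 61.7% in Tmem163, 60.3% in Rras2, 55.3% in Neu4 and 40.3% in Enpp6, with a median of 52.7% over all windows. The Fyn window held 31 CpG and the Enpp6 window 4, against a median of 7.

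The 10 genes covered a wide range of levels. In WT the order was Bcas1, Fyn, Bmp4, Enpp6, Tmem163, Dusp15, Rras2, Neu4, Itpr2 and Smoc1, from 2247 ± 594 (SD, n = 3) to 4.30 ± 0.370 (SD, n = 3) scaled TPM. Neighbours in this order did not overlap between libraries except for Enpp6 with Tmem163 and Rras2 with Neu4. In Npc1-/- the same genes stood at the top and at the bottom, but Dusp15 came before Enpp6 and Tmem163, and the ranges of Bmp4, Dusp15, Enpp6 and Tmem163 ran into each other in turn. Bcas1 was above 99.8% and Fyn above 99.4% of the genes tested, whereas Smoc1 was above 38.3%.

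**Figure D1:**
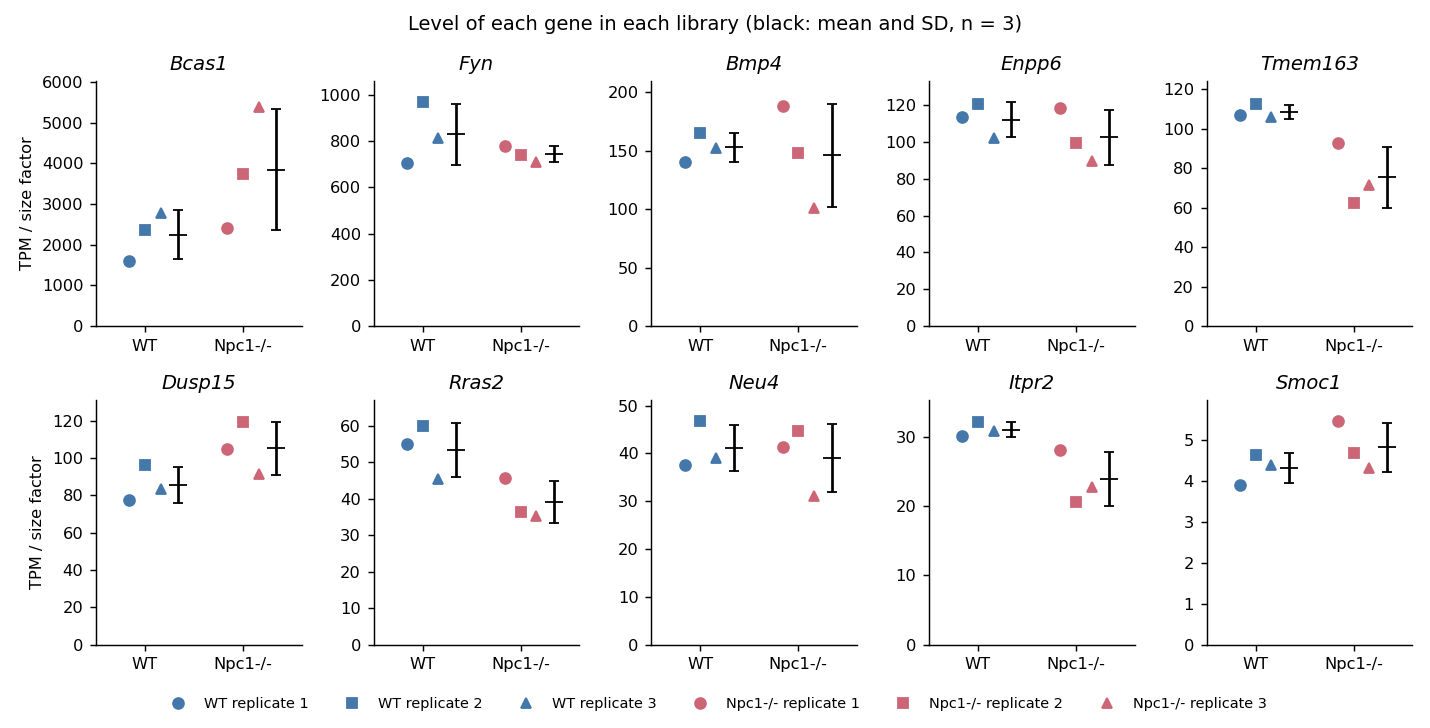
Level of each of the 10 genes (y axis, TPM divided by the size factor, linear from 0) in each of 3 WT (blue) and 3 Npc1-/- (red) libraries, with the mean and SD in black. For Tmem163 and Itpr2 all Npc1-/- points lie below all WT points, and for Bcas1 the Npc1-/- points spread from 2417 to 5384.

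The comparison of Npc1-/- with WT asks whether loss of the cholesterol transporter goes with a change in genes of the premyelinating stage. None of the 10 genes passed the thresholds set for limma (an adjusted p under 0.05 with a log2 fold change of 0.1 or more in either direction), which 0.813% of the 15245 genes tested passed, 0.4% with higher and 0.413% with lower expression. At an unadjusted p below 0.05 there were 3 of the 10, namely Tmem163, Rras2 and Itpr2, all lower in Npc1-/-, and 22.2% of all genes (11.6% lower). The median log2 fold change of the 10 was −0.12, beside 0.01 over all genes, and 7 of the 10 lay below 0, as did 49% of all genes. That median rested on single libraries: it was 0.01 without Npc1-/- replicate 3, −0.04 without WT replicate 2 and −0.21 without Npc1-/- replicate 1, and −0.25 with quantile normalization. The genotypes did not overlap for 2 of the 10, Tmem163 and Itpr2, both lower in Npc1-/-, while 14.2% of all genes were lower and 13.3% higher without overlap, 27.5% in either direction. Exact permutation of 3 against 3 libraries (two-sided, 20 arrangements) reaches 0.1 at the least, as it did for Tmem163 and Itpr2. In bulk RNA, fewer cells of a type and less RNA per cell cannot be told apart.

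Bmp4, the ligand among the 10, did not separate the genotypes. It stood at 140.5, 165 and 152 scaled TPM in WT replicates 1, 2 and 3 and at 188, 148 and 101 in Npc1-/- replicates 1, 2 and 3. The highest and the lowest of the 6 libraries were thus both Npc1-/-, and the spread there (SD 43.7) exceeded that in WT (SD 12.4). Its log2 fold change was −0.11 (95% interval −0.61 to 0.40), with an adjusted p of 0.819 by limma, and it was 0.13 without Npc1-/- replicate 3, the library with Xist. Bmp4 lies on chromosome 14 of GRCm38 from 46383520 to 46390669, where its exons overlap those of Gm15217 (mean 0.505 TPM) on the other strand, and use of strand in the counting is not given in the sources used here.

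Smoc1 encodes a secreted calcium-binding protein that antagonises BMP signals and had the lowest level of the 10. The study itself used it as a marker of OPCs. By qRT-PCR of whole forebrain, an unlike sample, the study found similar levels of Smoc1 in both genotypes. Its scaled TPM was 3.90, 4.63 and 4.37 in the WT replicates 1, 2 and 3, beside 5.46, 4.68 and 4.29 in the Npc1-/- ones. Only Npc1-/- replicate 1 stood clearly above the WT range. Smoc1 runs from 81026808 to 81186414 on the plus strand of chromosome 12. On the log2(scaled TPM + 0.5) scale used for every fold change here, which understates the change of low genes, the difference was 0.14 (95% interval −0.16 to 0.44, adjusted p = 0.572 by limma), and it was −0.19 on TPM as deposited.

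Of the receptors, signal carriers and targets of the BMP pathway, 24 of 26 listed genes were tested and none was called by limma, with 8 at an unadjusted p below 0.05. Their median log2 fold change was −0.30, and 10 of the 24 were lower in Npc1-/- without overlap. Over all genes tested, 22.2% had an unadjusted p below 0.05, 14.2% were lower and 13.3% higher without overlap. The same shares stand beside the counts of each list below. The largest difference was that of Smad6, an inhibitor that BMP signals themselves induce, at 12.4 ± 2.11 (SD, n = 3) scaled TPM in WT and 6.59 ± 0.906 (SD, n = 3) in Npc1-/-, with an adjusted p of 0.0528 by limma. Id1, a target that blocks differentiation factors of the bHLH class, stood at 72.6, 83.7 and 84.9 in WT and at 49.3, 53.2 and 65.6 in Npc1-/-. The log2 fold change of Id1 was −0.52 (adjusted p = 0.0777 by limma), and that of the ligand Bmp6 was −0.65 (adjusted p = 0.0998). Smurf1, a ubiquitin ligase for SMAD proteins, overlapped between genotypes (−0.20, adjusted p = 0.327). Id1 and Smad6 are also known from endothelial cells, whose summed markers were lower in Npc1-/- as given above.

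Itpr2 and Tmem163, a calcium channel and a zinc transporter, were the pair whose genotypes did not overlap. Itpr2, an inositol trisphosphate receptor that releases calcium from the endoplasmic reticulum and marks newly committed cells, was at 30.1, 32.2 and 30.9 scaled TPM in WT replicates 1, 2 and 3. In Npc1-/- replicates 1, 2 and 3 it was at 28.2, 20.7 and 22.8. The WT libraries lay close together, and of the Npc1-/- libraries only replicate 1 came near them. The level in Npc1-/- was 0.767-fold that in WT (95% interval 0.627 to 0.937), that is −0.38 on the log2 scale, with a standard error of 0.12 and an adjusted p of 0.131 by limma. Itpr2 has the longest transcript of the 10, at 11679 bases, and with a curve on transcript length removed from each library the log2 fold change of Itpr2 was −0.23 (adjusted p = 0.273 by limma). The gene runs from 146108299 to 146502223 on chromosome 6, minus strand.

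The other genes of inositol trisphosphate signalling and the calcium store were 16, of which none was called by limma and 6 had an unadjusted p below 0.05. Their median log2 fold change was −0.25, and 8 were lower in Npc1-/- without overlap. The paralogs Itpr1 and Itpr3 had the largest differences: Itpr1 was at 23.3 ± 2.78 (SD, n = 3) scaled TPM in WT and 14.3 ± 3.96 (SD, n = 3) in Npc1-/- (−0.72 on the log2 scale, limma adjusted p = 0.105). Itpr3 was at 6.91 ± 0.866 (SD, n = 3) and 4.14 ± 0.886 (SD, n = 3) (−0.69, adjusted p = 0.0755). All 3 receptor genes were thus lower in every Npc1-/- library than in any WT library. Of the most abundant genes in the list, the calcium pump Atp2a2 had a log2 fold change of −0.30 (adjusted p = 0.170) and the calcium-binding chaperone Calr one of −0.02 (adjusted p = 0.977).

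Tmem163, which moves zinc across membranes and is mutated in a hypomyelinating disorder, showed the largest negative difference of the 10. The WT replicates 1, 2 and 3 stood at 107, 112 and 106 scaled TPM and the Npc1-/- replicates 1, 2 and 3 at 92.4, 62.2 and 71.5. The WT libraries were close together, and every Npc1-/- library lay under them, replicate 2 the furthest. The level in Npc1-/- was 0.688-fold that in WT (95% interval 0.543 to 0.872), that is −0.54 on the log2 scale with a standard error of 0.15, and the adjusted p of 0.0923 by limma did not pass. The gene spans chromosome 1 from 127486546 to 127679548 on the minus strand, and its exons overlap those of Mgat5 on the other strand, a gene that had a mean of 4.22 TPM and scaled levels of 3.72 to 5.30 in WT and 3.13 to 4.73 in Npc1-/-.

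The 15 other genes of zinc transport and storage had a median log2 fold change of −0.17, with none called by limma and 6 at an unadjusted p below 0.05. The importer Slc39a10 was at 25.6 ± 5.48 (SD, n = 3) scaled TPM in WT and 12.9 ± 2.12 (SD, n = 3) in Npc1-/- (−0.95 on the log2 scale, limma adjusted p = 0.0557). The transporter Slc30a10, listed by its gene family and not by the metal it carries, was at 2.29 ± 0.432 (SD, n = 3) and 1.27 ± 0.0855 (SD, n = 3). Its log2 fold change was −0.65 (adjusted p = 0.0781 by limma). The abundant metallothionein genes Mt1 and Mt2 overlapped between genotypes, at 202 to 392 and 114 to 244 in WT and 242 to 635 and 73.7 to 311 in Npc1-/-. Slc39a8 and Slc39a12 were also lower, and Slc30a9 higher, without overlap; these names were picked with their values in view.

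Enpp6, a choline-specific phosphodiesterase, was at 114, 120.5 and 102 scaled TPM in WT and at 118, 99.4 and 89.5 in Npc1-/- replicates 1, 2 and 3. The lowest library was Npc1-/- replicate 3, and the highest was WT replicate 2. For Enpp6 the log2 fold change was −0.14 (95% interval −0.43 to 0.16, adjusted p = 0.590 by limma), an interval from 0.741-fold to 1.12-fold of the WT level. The paper used Enpp6 as a marker of immature oligodendrocytes and reported it as reduced in Npc1-/- forebrain by qRT-PCR. That was whole forebrain of other mice, whereas the cells here were purified with O4, so the measures are of unlike samples. Enpp6 lies on the plus strand of chromosome 8 from 46986887 to 47096762.

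Among 15 other genes that handle choline and phosphatidylcholine, 1 was called by limma. Gpcpd1, which splits glycerophosphocholine, fell from 39.8, 43.0 and 49.6 scaled TPM in WT to 23.1, 27.5 and 23.9 in Npc1-/- (−0.82 on the log2 scale, with a standard error of 0.11 and an adjusted p of 0.0383 by limma). The call was kept in 12 of 21 alternative settings and in 1 of the 6 that leave out a library, that without Npc1-/- replicate 3. Without any other single library the adjusted p by limma lay between 0.0654 and 0.168, with the log2 fold change between −0.73 and −0.89. The median log2 fold change of the list was −0.13. Pcyt1b and Gde1 were higher and Lpcat3 lower without overlap, all picked with their values in view.

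Neu4, a sialidase that trims sialic acid from gangliosides and polysialic acid, was at 37.7, 46.7 and 39.1 scaled TPM in WT and at 41.2, 44.8 and 31.0 in Npc1-/- replicates 1, 2 and 3. Only Npc1-/- replicate 3 lay under the WT range. The log2 fold change of Neu4 was −0.09 (95% interval −0.45 to 0.28, adjusted p = 0.795 by limma), and its sign rested on single libraries, being 0.06 without Npc1-/- replicate 3 and 0.00345 without WT replicate 2. Neu4 lies on chromosome 1 from 94020451 to 94028334. The 11 other genes of sialic acid metabolism that were tested had a median log2 fold change of 0.03, with none called by limma and 2 at an unadjusted p below 0.05. St8sia4, a polysialyltransferase, was at 4.03 ± 0.930 (SD, n = 3) in WT, against 2.07 ± 0.447 (SD, n = 3) in Npc1-/- (−0.81, adjusted p = 0.0780), and the lysosomal sialidase Neu1, picked with its values in view, was at 10.1 ± 1.07 (SD, n = 3) and 12.9 ± 0.450 (SD, n = 3) (0.35, adjusted p = 0.111). The abundant acceptor of polysialic acid, Ncam1, had a log2 fold change of 0.10 (adjusted p = 0.678).

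Dusp15, a dual-specificity phosphatase that lies downstream of SOX10 and MYRF, was higher in Npc1-/- with a small overlap. It stood at 77.4, 96.1 and 83.7 scaled TPM in WT and at 105, 119.6 and 91.4 in Npc1-/- replicates 1, 2 and 3. WT replicate 2 was above Npc1-/- replicate 3, and the other Npc1-/- libraries were above all of WT. Its difference was 0.29 on the log2 scale (95% interval −0.01 to 0.60, adjusted p = 0.241 by limma), but −0.08 on TPM as deposited, where the median of all genes was −0.33. In the paper, Dusp15 was likewise a marker of immature oligodendrocytes and was reduced in Npc1-/- forebrain by qRT-PCR. The direction here differed, in O4-purified cells and not in whole forebrain, and the reason was not tested. Dusp15 lies on chromosome 2 from 152940997 to 152951698 on the minus strand.

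Fyn, the Src-family kinase, was at 706, 968 and 814 scaled TPM in WT and at 779.7, 739 and 711 in Npc1-/- replicates 1, 2 and 3. All Npc1-/- libraries lay inside the WT range. The log2 fold change of Fyn was −0.15 (95% interval −0.49 to 0.19, adjusted p = 0.614 by limma), and it was −0.54 with quantile normalization and −0.03 without WT replicate 2. Fyn lies on the plus strand of chromosome 10 from 39368855 to 39565381. Of 22 genes that act on Fyn, beside it or under it, none was called by limma, 8 had an unadjusted p below 0.05 and the median log2 fold change was −0.09. Itga6, a laminin receptor subunit that signals through Fyn, was at 18.5 ± 2.75 (SD, n = 3) in WT, against 9.83 ± 1.91 (SD, n = 3) in Npc1-/- (−0.89, adjusted p = 0.0546), and the related kinase Lyn, which microglia also express, was at 5.02 ± 1.07 (SD, n = 3) and 3.23 ± 0.118 (SD, n = 3) (−0.55, adjusted p = 0.10). Mag, a myelin protein that binds axons and activates Fyn, was at 1187, 1146 and 1079 in WT and at 1669.5, 1510.3 and 1388 in Npc1-/- (0.42, adjusted p = 0.131). Hnrnpa2b1, which carries Mbp RNA and is a substrate of Fyn, had a log2 fold change of 0.05 (adjusted p = 0.860).

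Rras2, a small GTPase that feeds the PI3K and AKT pathway in oligodendrocytes, was at 55.1, 59.8 and 45.3 scaled TPM in WT and at 45.6, 36.4 and 35.2 in Npc1-/- replicates 1, 2 and 3. The groups overlapped by a single pair, Npc1-/- replicate 1 and WT replicate 3. The log2 fold change of Rras2 was −0.45 (95% interval −0.78 to −0.11, adjusted p = 0.130 by limma), a level 0.734-fold that in WT. Rras2 runs from 114046782 to 114117781 on chromosome 7, minus strand. Its paralog Rras was at 51.3 ± 1.57 (SD, n = 3) in WT, against 36.1 ± 5.11 (SD, n = 3) in Npc1-/- (−0.51, adjusted p = 0.0680). Over the paralogs of all 10 genes, 17 were tested, none was called by limma, 7 had an unadjusted p below 0.05 and the median log2 fold change was −0.22, with the most abundant, Enpp2, at −0.25 (adjusted p = 0.497).

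Bcas1, a protein of the early myelinating cell, was the most abundant of the 10 and had the largest difference and the widest spread. It was at 1601, 2369 and 2770 scaled TPM in WT and at 2417, 3733 and 5384 in Npc1-/- replicates 1, 2 and 3. Npc1-/- replicate 1 lay inside the WT range and the other Npc1-/- libraries above it. Bcas1 had a log2 fold change of 0.74 (95% interval −0.06 to 1.53, adjusted p = 0.257 by limma), an interval that reaches from 0.959-fold to 2.89-fold of WT, and it moved between 0.45 and 1.04 as single libraries were left out. Bcas1 runs from 170346991 to 170427845 on chromosome 2, minus strand, with antisense genes Bcas1os1 (mean 1.21 TPM) and Bcas1os2 (mean 0.212 TPM) across its exons.

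**Figure D2:**
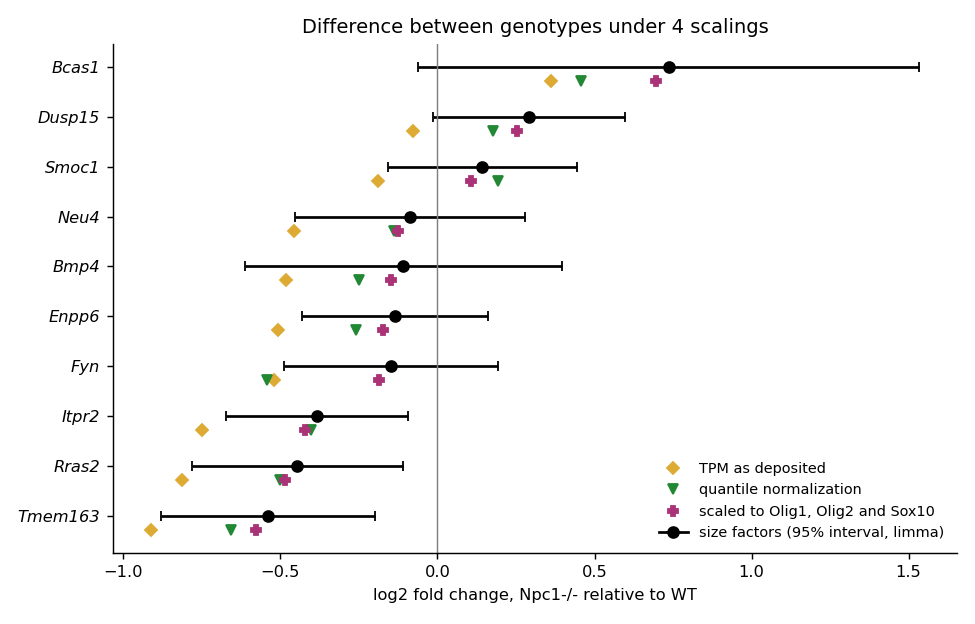
Log2 fold change of each gene in Npc1-/- relative to WT (x axis) with the limma 95% interval (black), and the same under other scalings (coloured). The black intervals of Tmem163, Rras2 and Itpr2 lie below 0, and so do the coloured points of these genes, whereas Dusp15 and Smoc1 change sign on TPM as deposited, where the median of all genes was −0.33.

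**Figure D3:**
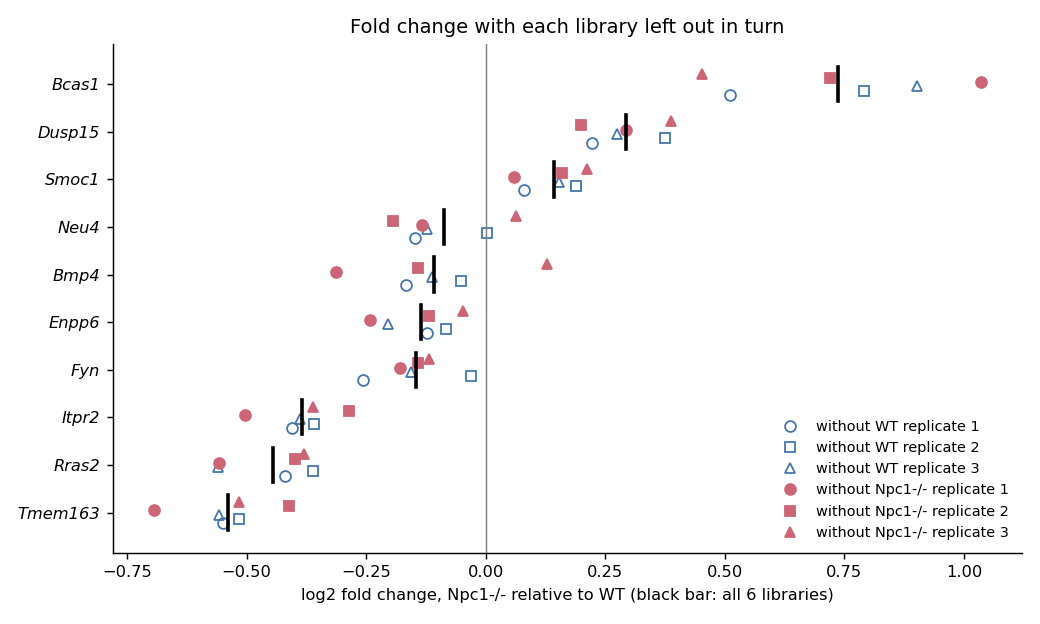
Log2 fold change of each gene (x axis) with all 6 libraries (black bar) and with each WT (open blue) or Npc1-/- (filled red) library left out. Tmem163, Rras2, Itpr2, Fyn and Enpp6 stay below 0 and Bcas1, Dusp15 and Smoc1 above 0, while Bmp4 and Neu4 cross 0 without Npc1-/- replicate 3.

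The 10 genes did not vary together as a block. WT replicate 2 was the highest library for 6 of the 10, and for 12.1% of all genes. Npc1-/- replicate 3 was the lowest for 4 (20.1% of all genes) and WT replicate 1 for another 4 (24% of all genes). Over the 6 libraries, which share their size factors with every gene, the log2 level of Fyn had a Pearson r of 0.869 with the mean of the other 9, Bmp4 of 0.701 and Enpp6 of 0.700, whereas Bcas1 had −0.727 and Dusp15 0.03. Of 9141 genes whose mean TPM reached 5, the most like the mean profile of the 10 were Nudt5 (0.988), Vcan (0.973), Epcam (0.971), Ehd3 (0.969) and Cyfip2 (0.968). These are descriptions over 6 points with no test.

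Genes of neighbouring stages were set beside the 10 to see where in the lineage the differences lay. The 17 other premyelinating genes tested had a median log2 fold change of −0.43, with none called by limma, 8 at an unadjusted p below 0.05 and 7 lower in Npc1-/- without overlap. Over all genes tested, 22.2% had an unadjusted p below 0.05, 14.2% were lower and 13.3% higher without overlap. Cnksr3, a scaffold protein, was at 62.4, 65.1 and 62.0 scaled TPM in WT and at 47.9, 34.8 and 37.4 in Npc1-/- (−0.66, adjusted p = 0.0557). Cemip2, a cell surface protein, had a log2 fold change of −0.75 (adjusted p = 0.184), the deacetylase Sirt2 −0.27 (adjusted p = 0.408) and the receptor Gpr17, the best known marker of the stage, −0.22 (adjusted p = 0.683). In contrast, the 17 myelinating markers had a median of 0.46, with none called by limma, 8 at an unadjusted p below 0.05 and 7 higher without overlap. Their median was 0.07 with quantile normalization, where that of all genes was 0.01. On TPM as deposited it was 0.09, beside −0.33 for all genes, and scaled to Olig1, Olig2 and Sox10 it was 0.42, beside −0.03. Klk6, a protease of mature cells, was at 35.8, 56.3 and 78.9 in WT and at 129.5, 194 and 211 in Npc1-/- (1.68, adjusted p = 0.0543), and Aspa had a log2 fold change of 0.94 (adjusted p = 0.0755). Mbp (0.57, adjusted p = 0.765) and Mobp (0.63, adjusted p = 0.505), the most abundant, did not pass. The 12 OPC markers had a median of 0.01, none called by limma and 3 at an unadjusted p below 0.05, with Cacng4 at 0.72 (adjusted p = 0.0861), Sox6 at −0.60 (adjusted p = 0.162), Gpr37l1 at −0.24 (adjusted p = 0.431) and Cspg5 at 0.06 (adjusted p = 0.910).

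**Figure D4:**
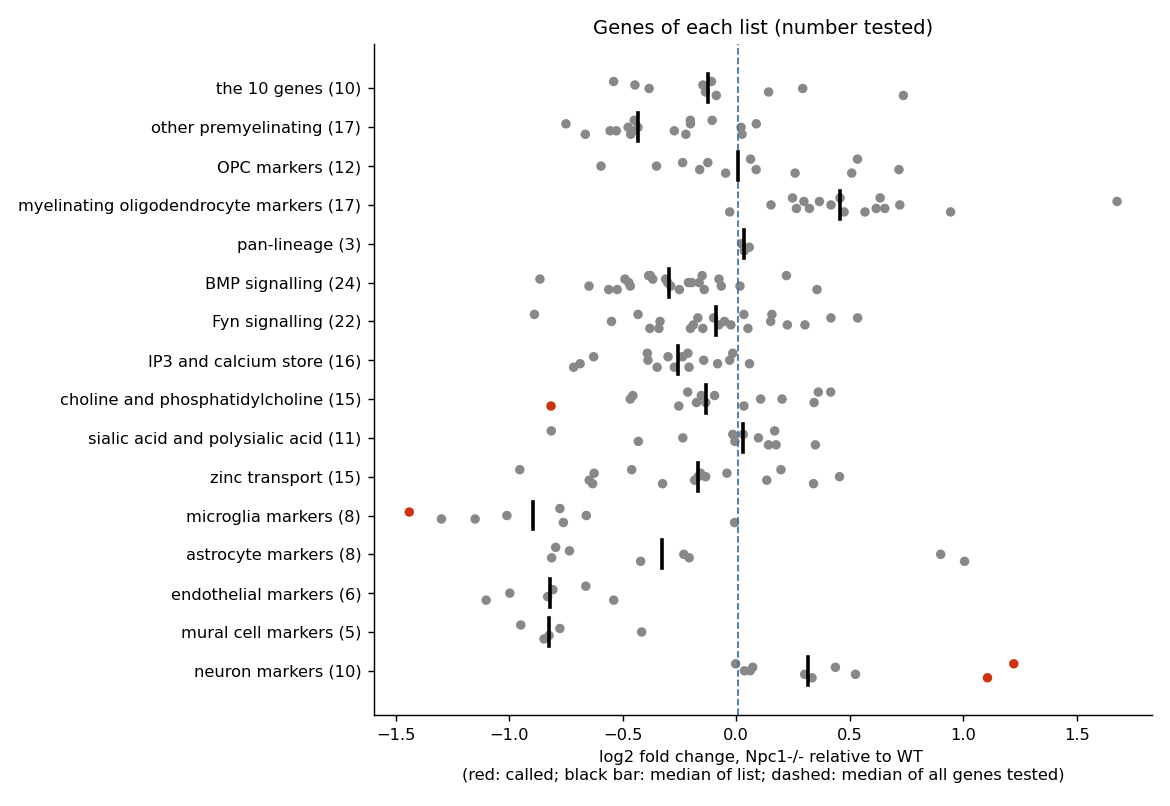
Log2 fold change of each tested gene (points, x axis) by list, with the median of the list (black bar), the genes called by limma (red) and the median of all genes, 0.01 (dashed). The 10 genes have a median of −0.12 and spread on both sides of 0, other premyelinating genes lie mostly below 0 and myelinating markers mostly above.

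Differences between lists within a library do not depend on the size factor. The mean log2 level of the 10 genes minus that of the other premyelinating genes was 0.43, 0.55 and 0.60 in WT, against 0.68, 0.83 and 0.87 in Npc1-/- replicates 1, 2 and 3, so that the groups did not overlap. Without Bcas1 the values were −0.03, 0.06 and 0.07 in WT, against 0.18, 0.24 and 0.21 in Npc1-/-, again without overlap. Bcas1 was picked for this with its values in view. It had the largest positive log2 fold change of the 10 (0.74), so its omission lowers Npc1-/- relative to WT by arithmetic. Against the OPC markers the groups overlapped, at 1.61, 1.80 and 1.85 in WT, against 1.43, 1.53 and 1.93 in Npc1-/-. Against the myelinating markers the values were −2.41, −2.46 and −2.75 in WT, against −2.73, −3.22 and −3.43 in Npc1-/-, with Npc1-/- replicate 1 just inside the WT range.

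**Figure D5:**
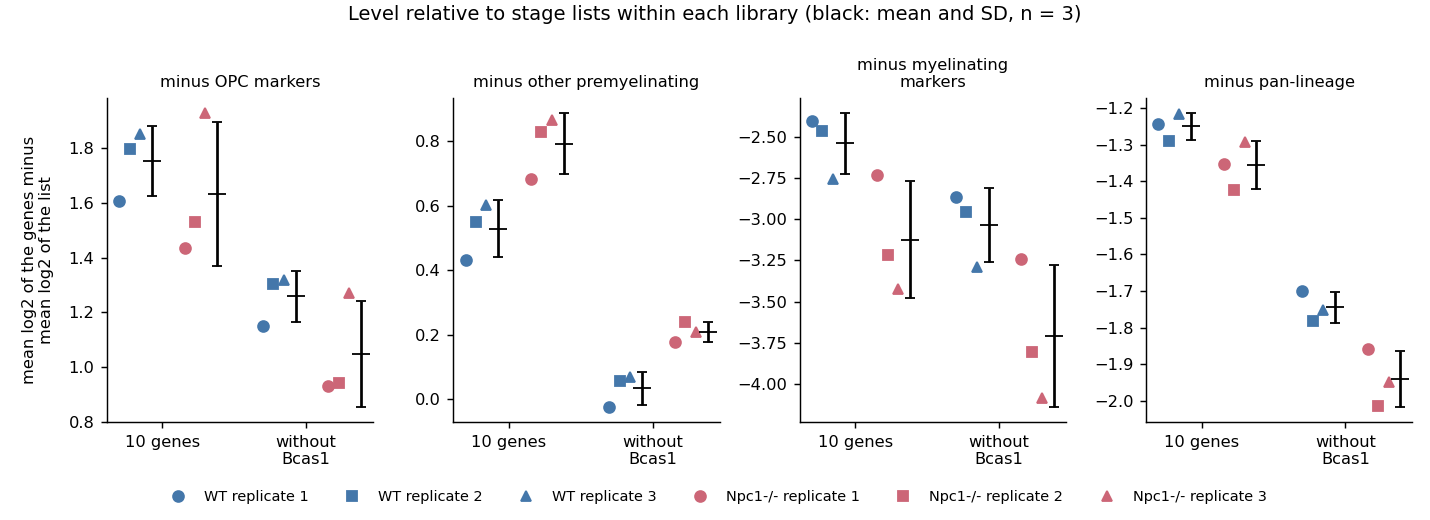
Mean log2 level of the 10 genes, and of the 9 without Bcas1, minus the mean log2 level of 4 stage lists in the same library (y axes, log2 units, each panel with its own range). Points are 3 WT (blue) and 3 Npc1-/- (red) libraries with mean and SD in black, and the genotypes separate for the other premyelinating list (0.43 to 0.60 in WT and 0.68 to 0.87 in Npc1-/- for the 10 genes) and for the pan-lineage list (−1.22 to −1.29 in WT and −1.29 to −1.42 in Npc1-/-).

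With Olig1, Olig2 and Sox10 as the reference for the amount of lineage RNA, the 10 genes lay at −1.24, −1.29 and −1.22 in WT and at −1.35, −1.42 and −1.29 in Npc1-/-, where WT replicate 2 and Npc1-/- replicate 3 nearly touched. Without Bcas1 the values were −1.70, −1.78 and −1.75 in WT, against −1.86, −2.01 and −1.95 in Npc1-/-. The wider gap follows from leaving out the gene with the largest positive difference and is not a separate result. On that scale, chosen after the data were seen, Tmem163, Rras2 and Itpr2 were lower and Dusp15 higher in every Npc1-/- library than in any WT library, whereas 11.1% of all genes were lower and 6.23% higher in this way. Their adjusted p by limma was then between 0.208 and 0.453, so none was called. For a pair picked with their values in view, the order differed by genotype: Dusp15 minus Tmem163 was −0.46, −0.22 and −0.34 (log2) in WT and 0.18, 0.94 and 0.35 in Npc1-/-, so that Tmem163 was the higher of the pair in each WT library and Dusp15 in each Npc1-/- library.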

How the data were processed

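RNA of O4-purified cells from 3 WT and 3 Npc1-/- mice was measured, 1 library a mouse, grouped by the genotype in the labels. The authors' methods name bbduk, STAR, featureCounts and GRCm38, and the submitters' processing notes name cutadapt 2.3, FastQC 0.11.8, STAR 2.7.8a, RSEM 1.3.3 and MultiQC 1.7 with GRCm38 (mm10), so which of the counters gave the values is not settled here. The authors deposited TPM and FPKM per gene. No fragment counts per gene could be recovered from these for genes with several transcripts, so no count test was run. Depth was estimated from the spacing of low FPKM values in genes with 1 transcript, of which 83.2% to 86.6% came within 0.15 of whole fragments.

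TPM was divided by median-of-ratios size factors (WT replicates 1, 2 and 3: 1.30, 1.11, 1.04, and Npc1-/-: 1.10, 0.855, 0.727). Mbp took 18.8%, 22.2% and 21.0% of TPM in WT replicates 1, 2 and 3 and 20.2%, 24.7% and 26.1% in Npc1-/-. The factor was lowest where this share was highest, but WT replicate 2 had both a larger share and a larger factor than WT replicate 3. How much of the factors is due to Mbp was not tested. A pseudocount of 0.5 was added and log2 taken. A mean TPM of 0.5 or more left 15245 genes, which limma 3.58.1 in R 4.3.3 (lmFit, eBayes with trend, two-sided, Benjamini-Hochberg over all genes) compared by genotype alone. All 10 genes passed that filter on the mean over all libraries. A gene was called when its adjusted p was under 0.05 and its log2 fold change was 0.1 or more in either direction, the limits in the authors' methods. The model was tested on simulated data. Positions came from GENCODE M21 (GRCm38), which holds 55227 of 55492 identifiers, and the promoter windows from RefSeq (GRCm38.p6). The 10 genes and all lists were chosen with earlier results of these data known. Named beside them were, from each list, the called genes or otherwise those with the largest difference or the highest level (at most 4), the genes that overlap one of the 10, and the 5 genes with the most similar profile. Plots (matplotlib 3.10.9) and summaries (pandas 2.3.3, scipy 1.17.1, numpy 2.4.6) were made in Python 3.11.15. The alternatives were other scalings, FPKM in place of TPM, pseudocounts of 0.1 and 1, other filters and variance models, omission of X-linked, Y-linked and mitochondrial genes, a curve on transcript length, the replicate number as a block, and each library left out. Scaling to Olig1, Olig2 and Sox10 and leaving out both libraries numbered 1 were added after seeing the data. The result of 1 marker list is not reported here.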

Additional observations from a re-analysis of the deposited data

How the results depend on the processing

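Over 21 alternative settings and 209 values of the 10 genes, 199 kept both direction and side of the threshold, 6 changed sign and 4 passed the threshold where the value reported did not. On TPM as deposited the median log2 fold change of the 10 was −0.49, beside −0.33 for all genes, and Smoc1 (−0.19) and Dusp15 (−0.0787) changed sign. Bmp4 (0.13, with a range of −0.31 to 0.13 over single libraries left out) and Neu4 (0.0636, with a range of −0.19 to 0.0636) changed sign without Npc1-/- replicate 3, Neu4 (0.00345) without WT replicate 2 and Smoc1 (−0.00257) without both libraries numbered 1. Smoc1 has no value at a mean TPM of at least 5. The cause was not tested. The number of genes called, 124 (61 higher and 63 lower), was 924 on TPM as deposited (54 and 870), 225 with quantile normalization (92 and 133), 21 with no filter (28469 genes tested), 447 at a mean TPM of at least 5 (175 and 272), 42 without the variance trend, 13 when scaled to Olig1, Olig2 and Sox10 (9 and 4), 12 without both libraries numbered 1 (9 and 3) and between 4 and 486 with 1 library left out. The replicate numbers are shared by both genotypes, but the labels do not name same-numbered libraries as pairs. The mice were compared with littermates, and whether same-numbered libraries share a litter or a batch cannot be told from the labels. For that reason the numbers were not taken as pairs. Deviations from the group means correlated at 0.414, 0.0602 and 0.326 between same-numbered libraries, and at −0.391 to 0.0548 between libraries of unlike number. Each library correlated best with its own number, which is a hint from the data and not from the design. With the replicate block, 2011 genes were called and 3 of the 10, Bcas1 (adjusted p = 0.0182 by limma), Rras2 (0.0465) and Tmem163 (0.0485). With the replicate block and the length curve together, 1672 genes were called and 1 of the 10, Bcas1 (0.0208). In the fit by genotype alone, without the block and with 3 libraries a genotype, only Tmem163, Rras2 and Itpr2 had a 95% interval that leaves out 0.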
